A study of Homo sapiens with 2 samples.

Results

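The PDGF, KIT and CSF1 ligands and receptors form 1 signalling family on these arrays, represented by 10 genes: the ligands PDGFA, PDGFB, PDGFC, PDGFD, KITLG and CSF1, and the receptors PDGFRA, PDGFRB, KIT and CSF1R. Members were the probe sets that the platform annotation gives to one of these symbols alone. That rule gave 25 probe sets, of 41091 with a single gene, and these 10 genes of 19775. A probe set is a group of short oligonucleotides whose signals are summarised as 1 value for a transcript. They were measured in AGS, an established line of gastric adenocarcinoma cells, in the form of 2 stable derivatives selected with puromycin after lentiviral infection. AGS.W carried a lentivirus with the whole coding region of WTX (also called AMER1), and AGS.veh, the control, carried its vehicle counterpart. RNA of each line was read on 1 Affymetrix U133 Plus array. Because neither line had a replicate, p-values, standard errors and an FDR cannot be given, and every difference below is between 2 cultures.

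Members of this family are class III receptor tyrosine kinases and the growth factors that pair them. A dimeric ligand joins a pair of receptors outside the cell, the kinase domains phosphorylate each other inside it, and the phosphotyrosines recruit PI3K, SRC family kinases, PLC gamma and the GRB2-SOS-Ras route. PDGF receptors are known from fibroblasts, pericytes and smooth muscle, KIT from mast cells, melanocytes, germ cells and the pacemaker cells of the gut wall, and CSF1R from macrophages. In the stomach, epithelial tumour cells commonly make ligands while surrounding stromal cells carry the receptors, and activating mutations of KIT or PDGFRA are a hallmark of gastrointestinal stromal tumours.

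KITLG and PDGFRB had the largest differences among the 10 genes, and PDGFA is the ligand whose probe sets all lay above the array median. The promoter windows of these 3 genes are therefore shown. They come from RefSeq on GRCh38.p14, run from 250 bases before to 50 bases after an annotated start, and are written 5′ to 3′ on the strand of the gene. Capitals mark matches on either strand to GGGCGG (the GC box, bound by SP1), CCAAT (the CCAAT box), TATAAA (the TATA box) or GCGGGGGCG, a longer GC element that overlaps the GC box. The table held windows for 7 of the 10 genes.
KITLG, chr12:88580422-88580721, minus strand: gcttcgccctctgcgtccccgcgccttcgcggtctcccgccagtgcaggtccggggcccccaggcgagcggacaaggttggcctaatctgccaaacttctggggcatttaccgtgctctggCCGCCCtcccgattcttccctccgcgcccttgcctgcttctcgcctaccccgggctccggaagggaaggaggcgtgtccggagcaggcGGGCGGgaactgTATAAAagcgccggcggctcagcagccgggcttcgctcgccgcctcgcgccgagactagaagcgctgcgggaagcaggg
PDGFRB, chr5:150155796-150156095, minus strand: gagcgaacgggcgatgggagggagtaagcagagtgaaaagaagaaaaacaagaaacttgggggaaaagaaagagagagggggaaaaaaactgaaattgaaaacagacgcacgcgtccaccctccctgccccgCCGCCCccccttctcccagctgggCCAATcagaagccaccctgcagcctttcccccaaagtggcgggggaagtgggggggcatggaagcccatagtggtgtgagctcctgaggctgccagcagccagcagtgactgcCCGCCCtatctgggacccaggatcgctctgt
PDGFA, chr7:519797-520096, minus strand, 1 of 4 start windows listed for this gene: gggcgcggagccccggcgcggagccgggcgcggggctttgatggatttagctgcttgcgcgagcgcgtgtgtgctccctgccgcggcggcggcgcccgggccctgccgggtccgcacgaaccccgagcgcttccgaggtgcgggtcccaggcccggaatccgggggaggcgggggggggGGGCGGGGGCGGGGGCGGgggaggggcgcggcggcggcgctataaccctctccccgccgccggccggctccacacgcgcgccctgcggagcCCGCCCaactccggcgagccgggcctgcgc
The KITLG window had a TATA box match whose first base lay 29 bases before the start, and 2 GC box matches. The PDGFRB window had a CCAAT match that began 94 bases before the start, 2 GC box matches and no TATA match. In the PDGFA window shown, 3 of its 4 GC box matches and both matches to the longer element stood in a single run of G and C, and 81.7% of its bases were G or C. Of the other PDGFA windows, that at 520177-520476 also held 2 matches to the longer element. Those at 520651-520950 and 518280-518579 held 0. Over all 35116 windows of the same length, 45.0% held a GC box match, 34.6% a CCAAT match, 11.5% a TATA match and 5.07% the longer element. A match describes the letters only, and binding at these starts was not measured.

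Both arrays had nearly the same distribution of log2 signals, with medians of 4.02 (AGS.W) and 4.03 (AGS.veh) over 54613 probe sets and a median difference of 0.00. Those medians serve here as a mark for dim signals, since no detection calls were used. The label of the extraction protocol names a brain tissue, whereas the other labels name AGS. Of the epithelial markers, 6 of 8 reached the median on both arrays, KRT8 and KRT18 among them, while CDH1 lay at 2.72 in AGS.W and 2.50 in AGS.veh. Among brain cell markers 6 of 12 measured genes did (GAD1, MBP, SLC17A7, MOG, RBFOX3 and SYP), the brightest being GAD1 at 7.06 in AGS.W and 7.11 in AGS.veh. The median divides each array evenly, and each gene was read on its brightest probe set. The share of all genes that reached it was not computed, so these counts alone do not identify a tissue. The astrocyte marker GFAP lay below the median in both lines, at 3.44 in AGS.W against 2.97 in AGS.veh. SNAP25 read 5.15 in AGS.W and 3.57, a dim value, in AGS.veh, with differences from 0.49 to 1.58 over its 3 probe sets. WTX itself was read by 1 probe set, at 3.70 in AGS.W and 3.86 in AGS.veh. Whether that probe set reads the vector was not settled, so it does not check the labels.

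KITLG, the ligand of KIT also known as stem cell factor, was the only member past 2-fold, and it was lower in AGS.W. Its probe set 226534_at gave a log2 signal that read 5.85 in AGS.W and 7.01 in AGS.veh, a difference of -1.16 or 2.24-fold. Of all 54613 probe sets, 386 had a more negative difference. The other 3 probe sets of KITLG lay below the median on both arrays with differences of -0.20, -0.23 and 0.00. Of these, 207029_at read 2.35 in AGS.W and 2.55 in AGS.veh; 211124_s_at read 1.75 in AGS.W and 1.98 in AGS.veh, while 216974_at read 0.94 on both. The 2-fold difference of KITLG thus stood on 1 probe set, and the mean difference over all 4 was -0.40.

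PDGFRB, the receptor for PDGF-BB and PDGF-DD that pericytes depend on, came next and was also lower in AGS.W. It was read by 1 probe set, 202273_at, which gave 4.08 in AGS.W and 5.06 in AGS.veh. The difference was -0.98, or 1.97-fold, and 656 probe sets had a more negative one. In AGS.W this signal lay at percentile 51.1 of the array, close to the median, and in AGS.veh at percentile 66.1. The study drew a pathway heatmap of genes picked on these same arrays, and its text does not name them. Any presence of KITLG or PDGFRB in it would not be independent evidence of a direction.

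The classical PDGF ligands were lower in AGS.W on each of their 6 probe sets, which read 2 genes in the same RNA. Over all probe sets 42.9% were lower. PDGFA, which encodes the A chain and signals mainly through PDGFRA, read 6.98 in AGS.W and 7.64 in AGS.veh on 205463_s_at, then 6.64 in AGS.W and 6.96 in AGS.veh on 216867_s_at. Those differences were -0.66 and -0.32, beside robust spreads of 0.39 and 0.38 among the 1000 probe sets nearest in signal. PDGFB, the B chain, which binds both PDGF receptors and is the cellular counterpart of the v-sis oncogene, had 2 probe sets above the median. The first, 216061_x_at, read 5.75 in AGS.W and 6.39 in AGS.veh, whereas 204200_s_at read 4.37 in AGS.W and 5.10 in AGS.veh. Their differences of -0.64 and -0.73 had like size, although both are of types (_x_at and _s_at) that can match more than 1 transcript. The remaining PDGFB probe sets, 217112_at and 216055_at, were dim on both arrays, with differences of -0.07 and -0.08.

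**Figure D1:**
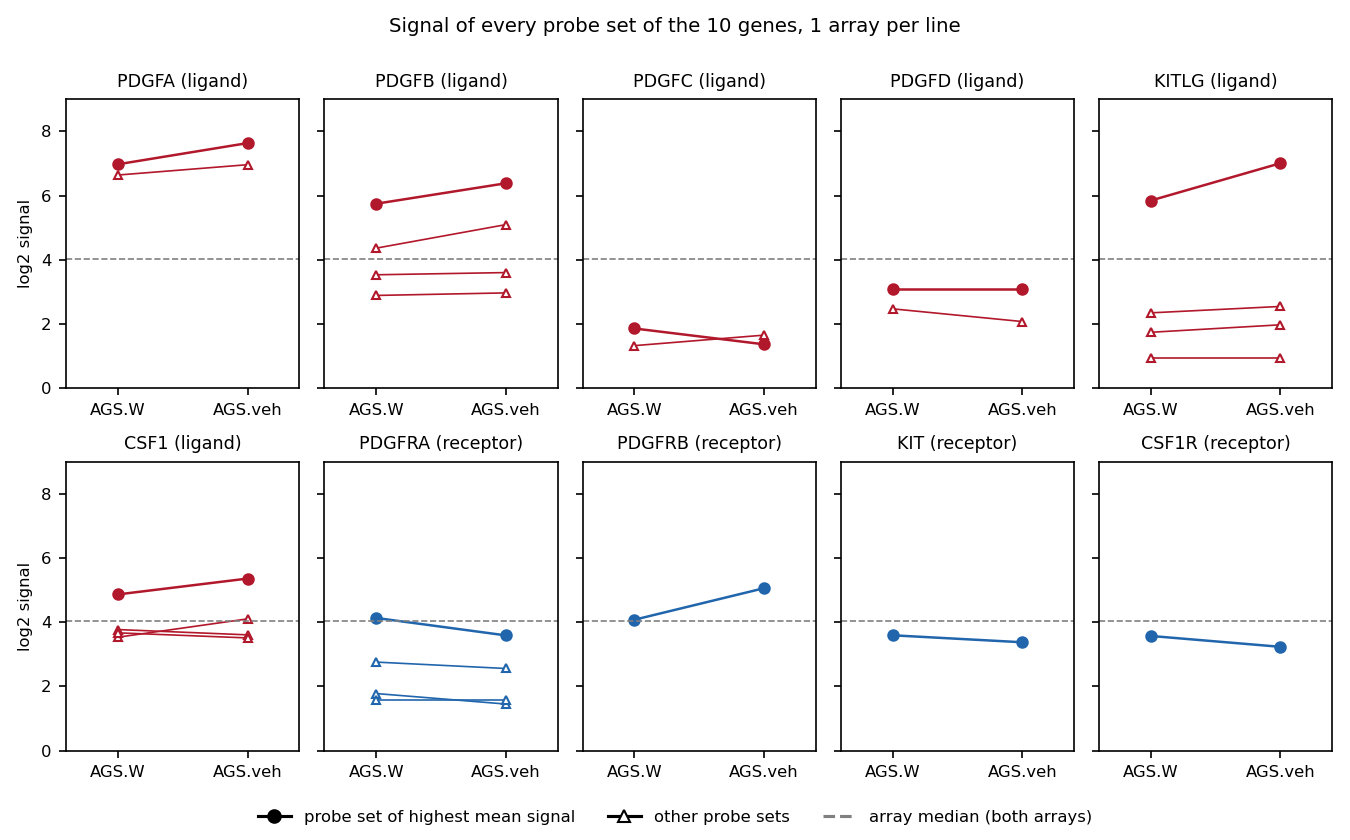
Log2 signal (vertical axis) of every probe set of the 10 genes in AGS.W and AGS.veh, 1 array each. Filled circles joined by thick lines are the probe set of highest mean signal, open triangles the others, red marks ligands, blue marks receptors, and the dashed line is the array median. The steepest line is that of KITLG, at 5.85 in AGS.W against 7.01 in AGS.veh. Most lines under the dashed line are close to flat.

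CSF1, the growth factor of macrophages, gave mixed readings. Its brightest probe set, 209716_at, read 4.87 in AGS.W and 5.36 in AGS.veh, a difference of -0.49, while 211839_s_at read 3.53 in AGS.W and 4.10 in AGS.veh, a difference of -0.57. The other pair, 210557_x_at and 207082_at, had differences of 0.16 each and lay below the median on both arrays. PDGFC and PDGFD, the ligands that carry a CUB domain and are activated by proteolysis, were dim throughout. PDGFC read 1.86 in AGS.W and 1.37 in AGS.veh on 222719_s_at, but 1.33 in AGS.W and 1.66 in AGS.veh on 218718_at, so its probe sets pointed in opposite directions. PDGFD had 3.11 on both arrays with 222860_s_at, and 2.48 in AGS.W against 2.08 in AGS.veh with 219304_s_at.

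The receptors other than PDGFRB were at or near the dim range. PDGFRA, the receptor of PDGF-AA and PDGF-CC, had 4.13 in AGS.W and 3.59 in AGS.veh on 215305_at, a difference of 0.54 that was the highest among the 25 probe sets. Only the AGS.W value reached the median, and with the AGS.veh value raised to the median the difference was 0.11. Its other 3 probe sets had differences of 0.20, 0.33 and 0.00, all below the median on both arrays. KIT read 3.59 in AGS.W and 3.38 in AGS.veh on its single probe set, a difference of 0.22. CSF1R read 3.57 in AGS.W and 3.23 in AGS.veh on its own, a difference of 0.34. For KIT and CSF1R no fold is given, since both lines were below the median.

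Across the family, 1 of 25 probe sets was lower by 2-fold or more in AGS.W, beside 1.12% of all probe sets, and 0 were higher by that much, beside 1.07%. At 1.5-fold, 5 of the 25 were lower, or 20.0%, beside 4.72% of all probe sets, and 0 were higher, beside 4.42%. These 5 were the KITLG, PDGFRB and brighter PDGFA probe sets and the 2 brighter ones of PDGFB, so 4 genes supplied them. Counted on brightest probe sets, 4 of 10 genes were lower by 1.5-fold or more, beside 5.35% of all genes, and 0 were higher, beside 4.68%. The members were chosen with earlier results of these data known, so these shares do not test the family. Probe sets of a gene read the same RNA, and a bulk array cannot tell fewer cells that express a gene from less RNA per cell. By gene, with the probe set of highest mean signal, 5 were lower, 4 higher and 1 identical, and the median difference over the 25 probe sets was -0.07, against 0.00 over all.

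**Figure D2:**
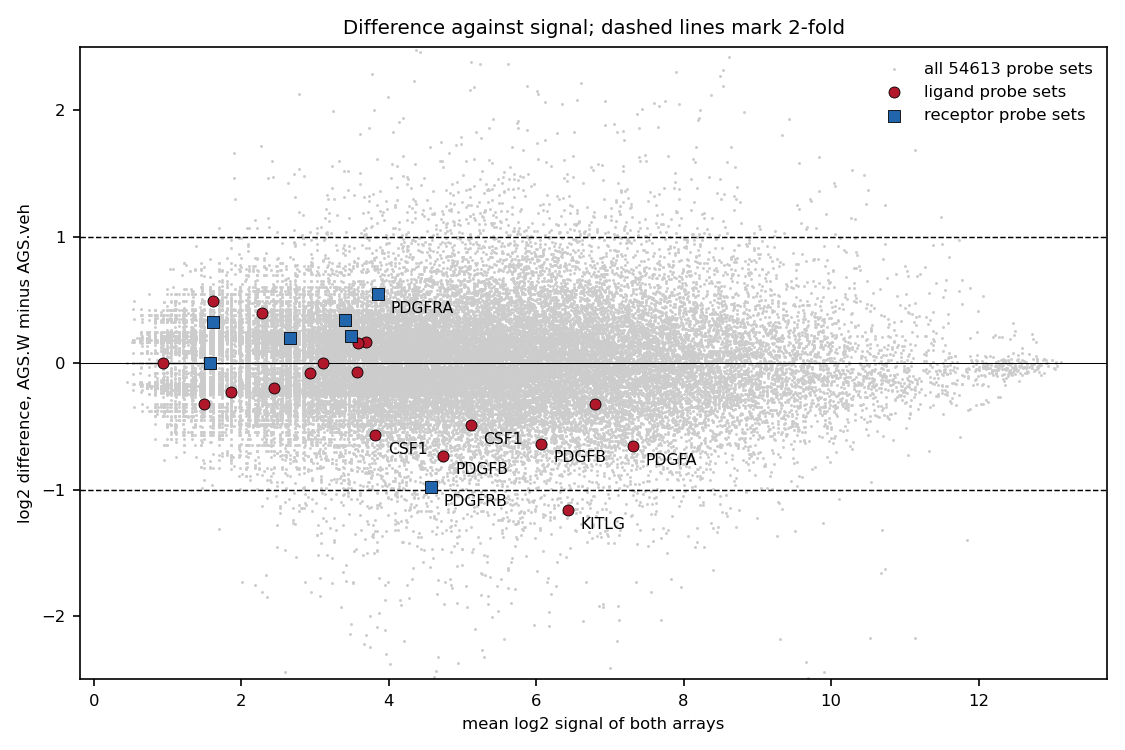
Log2 difference, AGS.W minus AGS.veh (vertical axis), against the mean log2 signal of both arrays (horizontal axis), for all 54613 probe sets (grey) and for those of the ligands (red circles) and receptors (blue squares). Dashed lines mark 2-fold, and 30 grey points beyond a log2 difference of 2.5 are outside the plot. KITLG at -1.16 is the sole member beyond the lines and PDGFRB at -0.98 lies just inside.

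Taken by role, the values were as follows. Of the 18 ligand probe sets, 12 were lower, 4 higher and 2 identical, with a median difference of -0.22. Of the 7 receptor probe sets, 1 was lower, 5 were higher and 1 was identical, with a median of 0.22, and 4 of the 7 belong to PDGFRA. All 5 higher ones lay below the median on at least 1 array, and the 0.22 is the value of KIT, dim in both lines. PDGFRB, the lower one, was alone among the receptors in reaching the median on both arrays. The split by role thus cannot be told apart from signal level. Over all probe sets 42.9% were lower, 44.5% higher and 12.6% identical. Of the 25, 7 reached the median on both arrays, 2 on 1 array and 16 on neither. Those 7 read PDGFA, PDGFB, CSF1, KITLG and PDGFRB, with differences between -1.16 and -0.32. The 16 dim ones had differences between -0.33 and 0.49.

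Several of the dim values recurred elsewhere on the arrays. To 6 decimals, 13 of the 25 probe sets had a size of difference, in either direction, that at least 100 other probe sets shared. That was true of 35.4% of all probe sets, of 61.3% of those below the median on both arrays and of 11.0% of those reaching it on both. PDGFC on 218718_at and PDGFRA on 203131_at had the same size, -0.33 and 0.33, together with 387 other probe sets. CSF1 on 209716_at and PDGFC on 222719_s_at shared a size of 0.49, with opposite signs, and KITLG on 207029_at had a size that 803 others had. In contrast, 0 other probe sets had the size of KITLG on 226534_at, of PDGFRB or of PDGFB on 204200_s_at, and 1 other had that of PDGFA on 205463_s_at. What gives the recurring sizes was not tested.

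**Figure D3:**
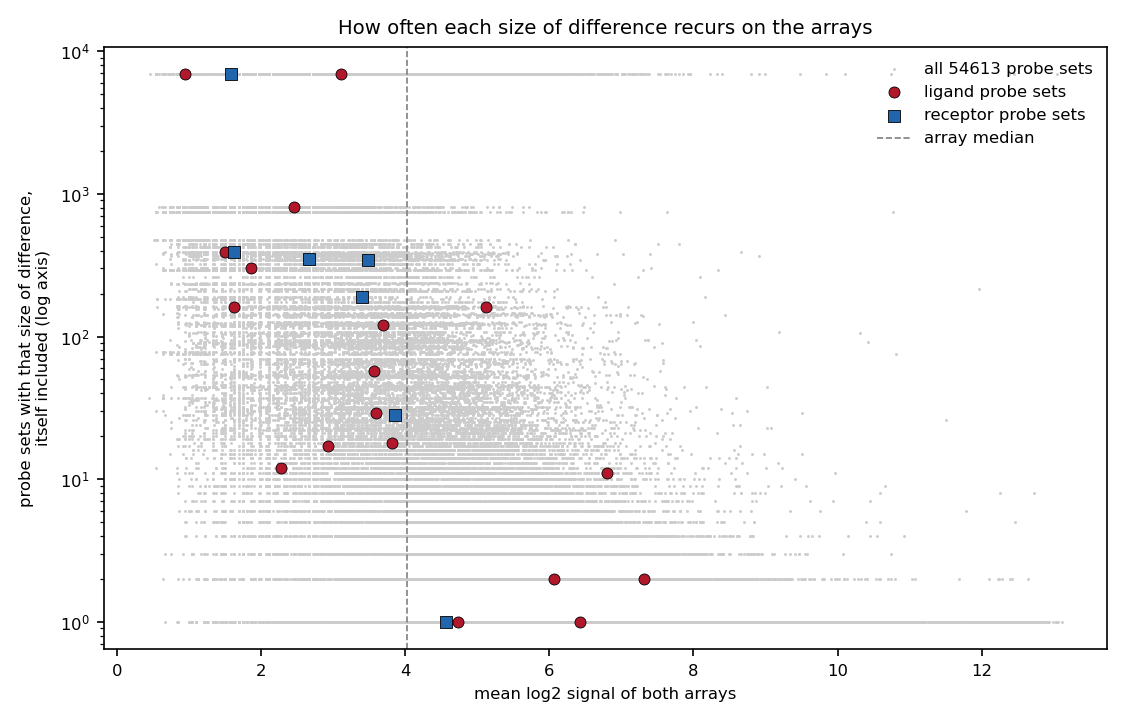
Number of probe sets that share a size of difference, itself included (vertical log axis), against the mean log2 signal of both arrays (horizontal axis), for all probe sets (grey), ligands (red circles) and receptors (blue squares). The dashed line is the array median. Of the member probe sets above it, CSF1 on 209716_at is the one with over 100 partners, while KITLG on 226534_at and PDGFRB sit at the bottom, where a size occurs on 1 probe set alone.

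The receptor genes stand in neighbouring pairs in the genome. PDGFRA and KIT lie on chromosome 4 with 2 annotated genes between them, 0 of them protein coding, and CSF1R and PDGFRB lie next to each other on chromosome 5. The pair on chromosome 4 had differences of 0.54 for PDGFRA, which reached the median in AGS.W only, and 0.22 for KIT, dim on both arrays. The pair on chromosome 5 had 0.34 for CSF1R, which was dim on both arrays, and -0.98 for PDGFRB. The values on chromosome 5 had opposite signs, although that of CSF1R comes from dim signals.

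Markers of the cells in which the receptors are best known were mostly dim for macrophages and mast cells, and less so for fibroblasts, pericytes and the pacemaker cells of the gut wall. Of 9 measured macrophage markers, 1 reached the median on either array, and PTPRC lay at 1.85 in AGS.W and 1.63 in AGS.veh. Their summed signals had log2 values of 6.52 (AGS.W) and 6.42 (AGS.veh). Of 5 mast cell markers, 1 reached the median, TPSAB1 at 4.49 in AGS.W and 4.76 in AGS.veh. The log2 sums were 5.56 (AGS.W) and 5.71 (AGS.veh). CPA3, a mast cell protease, lay at 2.64 in AGS.W and 2.86 in AGS.veh. Of 10 fibroblast and pericyte markers, 5 reached it on at least 1 array, with log2 sums of 8.67 (AGS.W) and 8.19 (AGS.veh). The difference between these sums came mostly from 1 gene, COL1A1, the brightest of the list. The list had a median difference of 0.12, with 1 gene past 1.5-fold on each side. COL1A1 read 7.89 in AGS.W against 6.95 in AGS.veh, with differences from -0.34 to 0.94 over its 5 probe sets, and ACTA2, dim in both lines, read 2.87 in AGS.W against 3.70 in AGS.veh. Of 4 markers of interstitial cells of Cajal, the gut pacemaker cells known for KIT, 3 reached the median on both arrays. ANO1, a chloride channel of these cells, read 4.38 (AGS.W) and 4.22 (AGS.veh), and the log2 sums of the list were 6.24 (AGS.W) and 6.19 (AGS.veh). KIT itself was dim in both lines. Of 5 endothelial markers, 2 reached the median on at least 1 array, with log2 sums of 6.08 (AGS.W) and 5.92 (AGS.veh). Both samples were cultures of the AGS line. Without a share over all genes, these counts do not show that such cells were present. Whether any of them had a part in the PDGFRB value was not tested.

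Partners of the family were taken from 6 pathway lists that held 96 genes, of which 81 were measured. In AGS.W 2 of these (2.47%) passed 2-fold on the higher side and 0 on the lower side, with a median difference of 0.00. Over all genes 1.22% passed 2-fold on the higher side, with 1.35% on the lower side. At 1.5-fold 6 of the 81 (7.41%) were higher, beside 4.68% of all genes, and 1 (1.23%) was lower, beside 5.35%. The 6 were PLAT, SOCS3, STAT5B and the transcription factors EGR1, SP1 and SPI1, of which SPI1 was dim in both lines, and the lower one was LRIG1. FLT3, the remaining class III receptor, read 3.54 in AGS.W and 3.60 in AGS.veh. Its ligand FLT3LG read 2.84 (AGS.W) and 3.03 (AGS.veh), so ligand and receptor were both dim. IL34, a further ligand of CSF1R, was above the median at 5.79 in AGS.W and 6.04 in AGS.veh, with a difference of -0.25.

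Of 13 genes that process or bind the ligands, PLAT was 2.15-fold higher in AGS.W. It encodes tissue plasminogen activator, which cleaves PDGF-CC into its active form, and read 5.63 in AGS.W and 4.53 in AGS.veh. Its substrate gene PDGFC was dim in both lines, as described. On their brightest probe sets, the 29 measured adaptors and enzymes that bind the receptors included no gene past 2-fold, with differences between -0.56 and 0.51. Other probe sets went further: NCK1 ranged from 0.22 to 1.26 over 4, and FYN from -0.83 to 0.55 over 5. The 10 measured Ras, MAP kinase, AKT and STAT effectors lay between -0.49 and 0.65 on their brightest probe sets. Of 14 measured ubiquitin ligases, phosphatases and inhibitors, SOCS3, a feedback inhibitor of cytokine signalling, was 2.31-fold higher and read 6.98 in AGS.W and 5.77 in AGS.veh. Its 4 probe sets ranged from -0.24 to 1.21. The 11 measured transcription factors known for ligand or receptor genes included none past 2-fold and 3 that were higher by 1.5-fold or more.

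**Figure D4:**
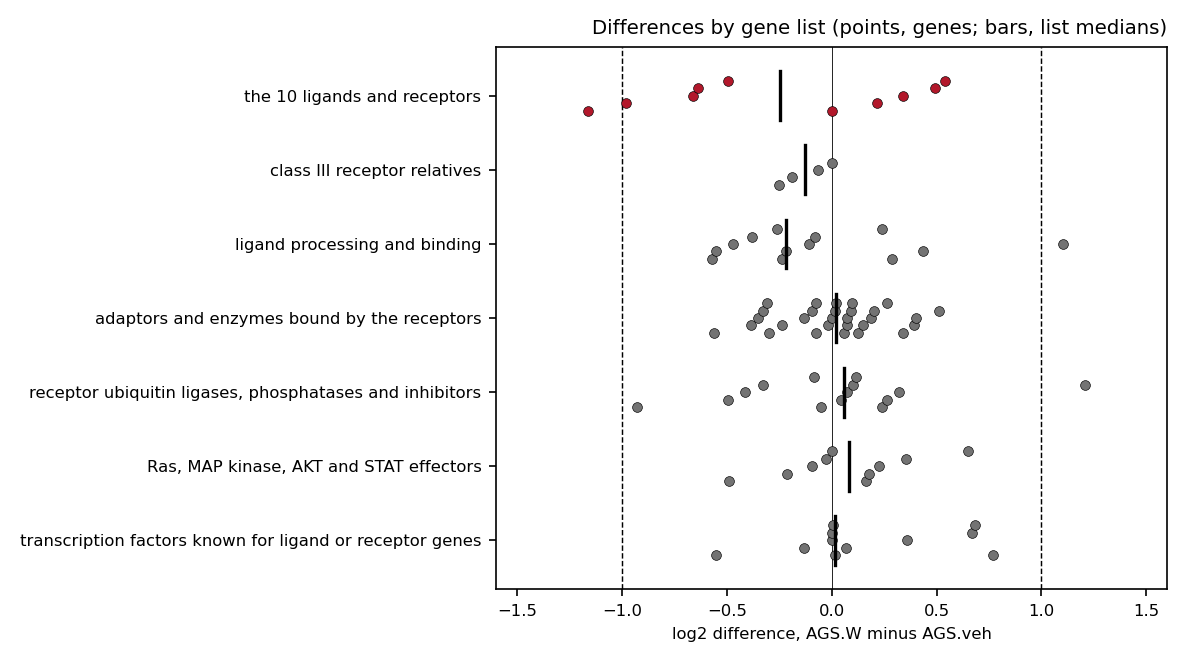
Log2 difference, AGS.W minus AGS.veh (horizontal axis), of each gene (points) of the family and of the 6 pathway lists (rows), read on its brightest probe set, with black bars at the list medians and dashed lines at 2-fold. Past 2-fold lie KITLG at -1.16 in the family, PLAT at 1.10 and SOCS3 at 1.21. The medians of the pathway lists lie between -0.22 and 0.08.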

How the data were processed

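Total RNA of AGS.W and AGS.veh cells was hybridised to 1 Affymetrix U133 Plus 2.0 array each. Per probe set, a deposited log2 signal stands for each array, and the authors had normalized these between the arrays. RMA and MAS5 are listed in the submitters' processing notes, without versions or roles; for background correction and probe set definitions, no statement is given in the sources used here. Differences AGS.W minus AGS.veh were computed on the deposited log2 scale after 62 control probe sets were left out. Signal over background and the small number of arrays limit the precision.

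Platform annotation of 2016 named the probe sets, with symbols updated through RefSeq gene identifiers (GRCh38.p14). Probe sets of several genes were not used, so some listed genes were not analysed here. Gene and pathway lists, written from general knowledge, and the members were chosen with earlier results of these data known. All 10 members, FLT3, FLT3LG and IL34 are named. Of other lists, up to 3 genes per direction past 2-fold are named where signal reached the median on at least 1 array. Marker genes given as checks, and pathway genes past 1.5-fold, were added after their values were seen. So were NCK1, FYN, MITF and NRP1, which were below 1.5-fold on their brightest probe sets. A gene's value is that of its probe set with the highest mean signal. The fold threshold of 2 is that of the study's methods, whose FDR could not be computed. Alternatives covered scaling (median centring, quantile, or a lowess curve of span 0.3), signal filters, probe set types, probe set means, signals raised to the median, and thresholds of 1.5 and 3. Counting was tested on simulated data. Software: pandas 2.3.3, numpy 2.4.6, matplotlib 3.10.9 and statsmodels 0.14.6 under Python 3.11.15.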

Additional observations from a re-analysis of the deposited data

How the results depend on the processing

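No paired analysis was possible because there was a single array of each line, so none could be left out either. Under median centring, quantile normalization and a lowess curve, the counts of member probe sets past 2-fold stayed at 1 lower and 0 higher, and no gene's difference moved by more than 0.02. At 1.5-fold, 5 were lower, and at 3-fold 0. The median over the member probe sets was -0.64 for those at or above the array median on at least 1 array (9 probe sets) and -0.66 for those on both (7 probe sets), because dim probe sets with small differences were left out; members that pass only through their higher array had to differ. Moves of a gene were set against the robust spread of differences of the 1000 probe sets nearest in signal, and a move of the median against 0.1. Of 53 alternative values of the 10 genes, 47 stayed within that spread and 6 moved further. Most of the 53 were rescalings, which moved values little, and several others gave back the main value. The count of 47 therefore does not measure how far a gene depends on the choice of probe set. The 6 that moved further follow. As means of all probe sets, KITLG had -0.40, PDGFRA 0.27 and PDGFC 0.083. Without _x_at and _s_at probe sets PDGFB had -0.069 and PDGFC -0.33, the 1 change of sign. With dim signals raised to the median, PDGFRA had 0.11. For PDGFRB, KIT and CSF1R, read by 1 probe set each, these choices of probe set could change nothing or could not be made.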

Other observations

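Regulators known from the PDGF and KIT systems showed the following values, in genes chosen after their values were seen. EGR1, an immediate early factor, and SP1 both bind GC-rich elements such as those in the PDGFA window shown, which differs from other PDGFA windows. EGR1 read 9.68 in AGS.W and 8.92 in AGS.veh, with differences from 0.60 to 0.77 over its 3 probe sets, and SP1 read 8.68 in AGS.W and 8.00 in AGS.veh, with 0.20 to 0.68 over 4. PDGFA was lower in AGS.W on both of its probe sets, and any part of EGR1 or SP1 in that was not tested. MITF, a factor of melanocytes and mast cells that acts on the KIT gene, read 7.84 in AGS.W and 8.39 in AGS.veh, with differences from -0.55 to 0.22 over 3 probe sets, while KIT was dim in both lines.

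LRIG1, a membrane protein known for restraining receptor tyrosine kinases, read 5.04 in AGS.W and 5.96 in AGS.veh, with differences from -0.93 to 0.03 over 4 probe sets. NRP1, a co-receptor that binds PDGF among other ligands, read 3.73 in AGS.W, below the median, and 4.28 in AGS.veh on its brightest probe set. That difference was -0.55, with a range from -1.68 to 0.00 over 4 probe sets, the others of lower mean signal. STAT5B, which KIT and the PDGF receptors can activate, had differences from 0.18 to 1.03 over 5 probe sets, all of them higher in AGS.W.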
